A study of Homo sapiens with 36 samples.

Results

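The respiratory chain transcripts described here are the protein-coding genes of the deposited table that carry a symbol of the families NDUFA, NDUFB, NDUFC, NDUFS and NDUFV, SDHA to SDHD, UQCR, COX4 to COX8, ATP5 or MT-. The name rule found 102 genes among 60662 gene IDs, of which 19957 are protein coding. Of the 102 genes, 89 lie in the nucleus and all 13 protein-coding genes of mitochondrial DNA are included. The nuclear genes fall into 37 of complex I, 4 of complex II, 9 of complex III, 19 of complex IV and 20 of complex V. The mitochondrial genes encode 7 subunits of complex I, 1 of complex III, 3 of complex IV and 2 of complex V. NDUFA4 and its paralogue NDUFA4L2 were placed with complex IV. Subunits with other names, such as CYC1 and NDUFAB1, fall outside the rule.

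The cells were A549, an established line from a human lung adenocarcinoma. They were transfected with siRNA against the transcription factor ATF4 (siATF4), against ATF6 (siATF6) or with a non-targeting siRNA (siControl), each at 100 nM. They were then kept without glucose (0 mM) or in 25 mM glucose for 16 or 6 h, in pyruvate-free medium with 10% dialysed serum and 2 mM glutamine in every group. The 12 groups held 3 libraries each, labelled as biological replicates of this 1 cell line, and p-values measure the spread between those cultures. Per the labels, transfected cells were divided over a pair of wells before treatment. The main tests did not use this pairing. Below, replicate numbers are said to pair libraries only where the values of those libraries deviated together by a correlation rule.

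Oxidative phosphorylation couples electron transfer to ATP synthesis in the inner mitochondrial membrane. Complex I takes electrons from NADH and complex II from succinate, both pass them to coenzyme Q, complex III hands them to cytochrome c and complex IV to oxygen, while complex V makes ATP from the proton gradient. Every complex but complex II joins subunits made in the cytosol with subunits encoded by mitochondrial DNA, which is transcribed as long polycistronic RNAs. Cells without glucose depend on glutamine and other fuels that feed this chain, and ATF4 and ATF6 are transcription factors of the integrated stress response and the unfolded protein response.

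Several libraries stood apart. Only 2.87 M counts came from replicate 3 of siATF4 without glucose at 6 h, and its log values correlated with those of other libraries at 0.004 at most. It was left out of levels and of the main tests. The other 35 libraries held 39.4 to 78.7 M counts. At 6 h, replicate 2 ran against its glucose labels in siControl and siATF6. HSPA5, an endoplasmic reticulum chaperone induced by stress, differed between the library labelled 0 mM and the library labelled 25 mM by -2.29 on the log2 scale in siControl replicate 2, against 2.42 and 2.49 in replicates 1 and 3. In siATF6 the difference was -1.47 in replicate 2, against 1.75 and 1.61 in replicates 1 and 3. Results at 6 h are therefore given as labelled and again without replicate 2. At 16 h the HSPA5 difference was between 3.40 and 4.14 in all 9 pairs. The silenced genes were lower at 16 h in 0 mM glucose, with ATF4 at 158 to 224 CPM in siATF4 and 426 to 498 CPM in siControl, and ATF6 at 11.1 to 20.9 CPM in siATF6 and 90.4 to 91.9 CPM in siControl. In 25 mM glucose at 16 h, ATF4 was at 118 to 139 CPM in siATF4 and 145 to 180 CPM in siControl, and ATF6 at 7.83 to 10.3 CPM in siATF6 and 44.8 to 46.1 CPM in siControl. At 6 h ATF4 was at 117 to 212 CPM in siATF4 and 206 to 451 CPM in siControl in 0 mM glucose, which overlap, and ATF6 at 6.09 to 17.9 CPM in siATF6 and 43.0 to 63.0 CPM in siControl. All 10 epithelial and A549 markers were expressed, with summed levels of 11377 to 23160.1 CPM in any library, and markers of endothelial cells, fibroblasts, erythroid cells and muscle summed to 2.07 CPM at most. Of 4 leukocyte markers only CD68 reached 1 CPM, and it was at 77.0, 26.4 and 33.8 CPM in 0 mM and 42.7, 23.9 and 25.2 CPM in 25 mM glucose in siControl at 16 h. CPM are scaled by library size with normalisation by the trimmed mean of M-values (TMM).

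The mitochondrial mRNAs were the most abundant transcripts of the chain. In siControl cells in 25 mM glucose at 16 h the median level per kilobase of transcript was 2232 CPM per kilobase over the 13 mitochondrial genes, against 66.6 CPM per kilobase over the 89 nuclear genes. The highest mitochondrial levels were those of the 3 catalytic core subunits of complex IV. MT-CO2 was at 5949 ± 1882 CPM per kilobase (SD, n = 3), MT-CO1 at 5856 ± 2071 and MT-CO3 at 5285 ± 2013, and their order lay within the SD. MT-ATP6, the proton channel subunit of complex V, followed at 4959 ± 1493 CPM per kilobase. Complex I subunits came next, with MT-ND4 at 2581 ± 777, MT-ND2 at 2397 ± 540.0, MT-ND1 at 2232 ± 739 and MT-ND3 at 1471 ± 362 CPM per kilobase. MT-CYB, the cytochrome b of complex III, was at 1346 ± 444 CPM per kilobase. MT-ND4L was at 623 ± 349, MT-ND5 at 613 ± 190.1, MT-ND6 at 458 ± 82.0 and MT-ATP8 at 173 ± 32.6 CPM per kilobase. Neighbours in this order differed by less than the sum of their SDs, apart from the steps from MT-ATP6 to MT-ND4 and from MT-ND6 to MT-ATP8. The libraries were poly(A)-enriched and not stranded, so these levels depend on the poly(A) tail, and reads of MT-ND6 cannot be told apart from antisense RNA of the other strand. MT-ATP8 and MT-ATP6 share 22.2% of the exon bases of MT-ATP8, and RSEM gave MT-ATP8 an effective length of only 2.67 bases, so the level of MT-ATP8 is very uncertain.

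Among nuclear genes the highest level was that of ATP5F1B, the catalytic beta subunit of ATP synthase, at 532 ± 19.3 CPM per kilobase. Taken over all its nuclear genes, complex V had the highest median, 112 CPM per kilobase. Complex III followed at 93.4, complex IV at 62.2, complex II at 56.5 and complex I at 55.8. The place of complex IV depended on COX4I2, COX6A2, COX7A1, COX7B2 and COX8C, which were at 0.0 CPM per kilobase in these libraries. Without them the median of complex IV lay between COX5B at 133 and COX6C at 161 CPM per kilobase, above that of complex V. By total CPM averaged over the 35 libraries, the leading genes were MT-ND4 for complex I (3477 CPM), SDHA for complex II (121 CPM), MT-CYB for complex III (1303 CPM), MT-CO1 for complex IV (8516 CPM) and MT-ATP6 for complex V (3267 CPM). The corresponding nuclear leaders were NDUFV1 (132 CPM), UQCRFS1 (281 CPM), COX4I1 (261 CPM) and ATP5F1B (922 CPM). The plot of levels per kilobase shows the gap between both genomes.

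**Figure D1:**
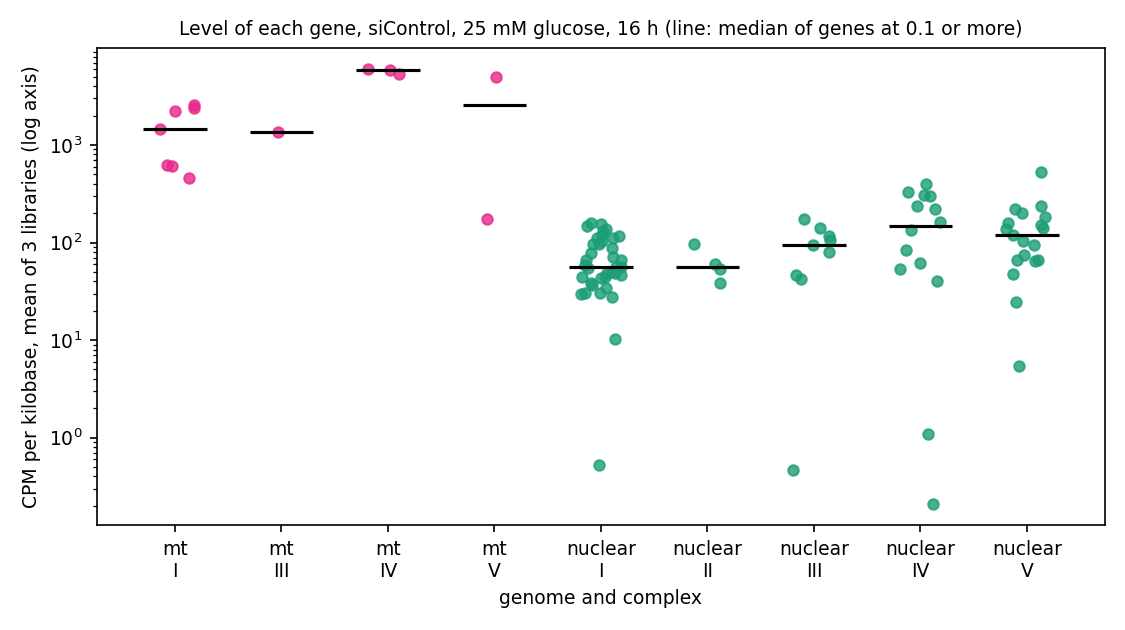
Mean level of each gene in siControl cells in 25 mM glucose at 16 h, in CPM per kilobase on a log axis, by genome and complex. Each point is 1 gene and each line the median of genes at 0.1 or more. Mitochondrial medians lie between 1346 and 5856 CPM per kilobase, and MT-ATP8 (173) and MT-ND6 (458) are the mitochondrial genes below the highest nuclear gene, ATP5F1B (532).

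Isoforms known from other tissues were near 0. Of the complex IV isoforms, COX4I1 was at 223 ± 13.2 CPM in siControl cells in 25 mM glucose at 16 h (SD, n = 3), while COX4I2, a counterpart known from lung, had 1 count in all 36 libraries. COX6A1 was at 177 ± 14.7 CPM, and the heart and muscle form COX6A2 had 0 counts in every library. COX7A2 was at 62.3 ± 6.16 CPM, and the muscle form COX7A1 had 9 counts over all libraries. COX6B1 was at 192 ± 19.1 CPM, and the testis form COX6B2 was at 0.2 to 0.441 CPM in those 3 libraries. COX8A was at 152 ± 18.3 CPM with 3 counts in all for COX8C, and COX7B was at 51.8 ± 16.4 CPM with 1 count in all for COX7B2. COX6C was at 87.6 ± 1.76 CPM and COX7A2L at 89.7 ± 8.78 CPM. UQCRH was at 95.0 ± 7.84 CPM, against 1.01 ± 0.395 CPM for its copy UQCRHL. The 3 genes for the identical mature c subunit of ATP synthase were all expressed, ATP5MC2 at 184 ± 20.3 CPM, ATP5MC3 at 149 ± 14.0 CPM and ATP5MC1 at 114 ± 11.1 CPM. ATP5MGL had 5 counts over all libraries. The readthrough genes ATP5MF-PTCD1 and NDUFC2-KCTD14 were at 13.6 ± 1.23 and 0.341 ± 0.265 CPM, and share 93.8% and 100.0% of their exon bases with other genes, so their values are uncertain. COX4I2, COX6A2, COX7A1, COX7B2, COX8C and ATP5MGL did not pass the filter on low counts. The other 96 genes were tested. The table also lists 145 processed pseudogenes with names of these families and 394 pseudogenes named for mitochondrial genes, which can share reads with the members.

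The share of counts from mitochondrial mRNAs did not separate the glucose groups. The 13 mitochondrial mRNAs took 1.25 to 4.96% of all counts and the 89 nuclear genes 0.648 to 1.09% in the 35 libraries. Replicate 1 had the lowest mitochondrial share in 12 of 12 groups. At 16 h in siControl the mitochondrial share was 2.34, 2.95 and 3.30% in 0 mM glucose (replicates 1 to 3), against 2.25, 3.54 and 4.48% in 25 mM glucose. These groups overlap. In siATF4 it was 1.30, 2.63 and 3.69% in 0 mM and 2.57, 3.51 and 3.40% in 25 mM glucose, and in siATF6 1.51, 3.10 and 3.63% in 0 mM and 1.71, 3.66 and 3.00% in 25 mM glucose. Both of these pairs of groups overlap as well, and within replicate numbers the sign of the difference changed in each siRNA. The difference of means, 0 minus 25 mM, was -0.56 percentage points in siControl, -0.62 in siATF4 and -0.042 in siATF6. With 1 library left out at a time it lay between -1.15 and -0.030 in siControl, -1.19 and -0.0003 in siATF4 and -0.582 and 0.575 in siATF6. The median coefficient of variation between replicates was 37.0% over the mitochondrial genes and 11.8% over the 83 tested nuclear genes, so a change had to be larger to pass for a mitochondrial gene.

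**Figure D2:**
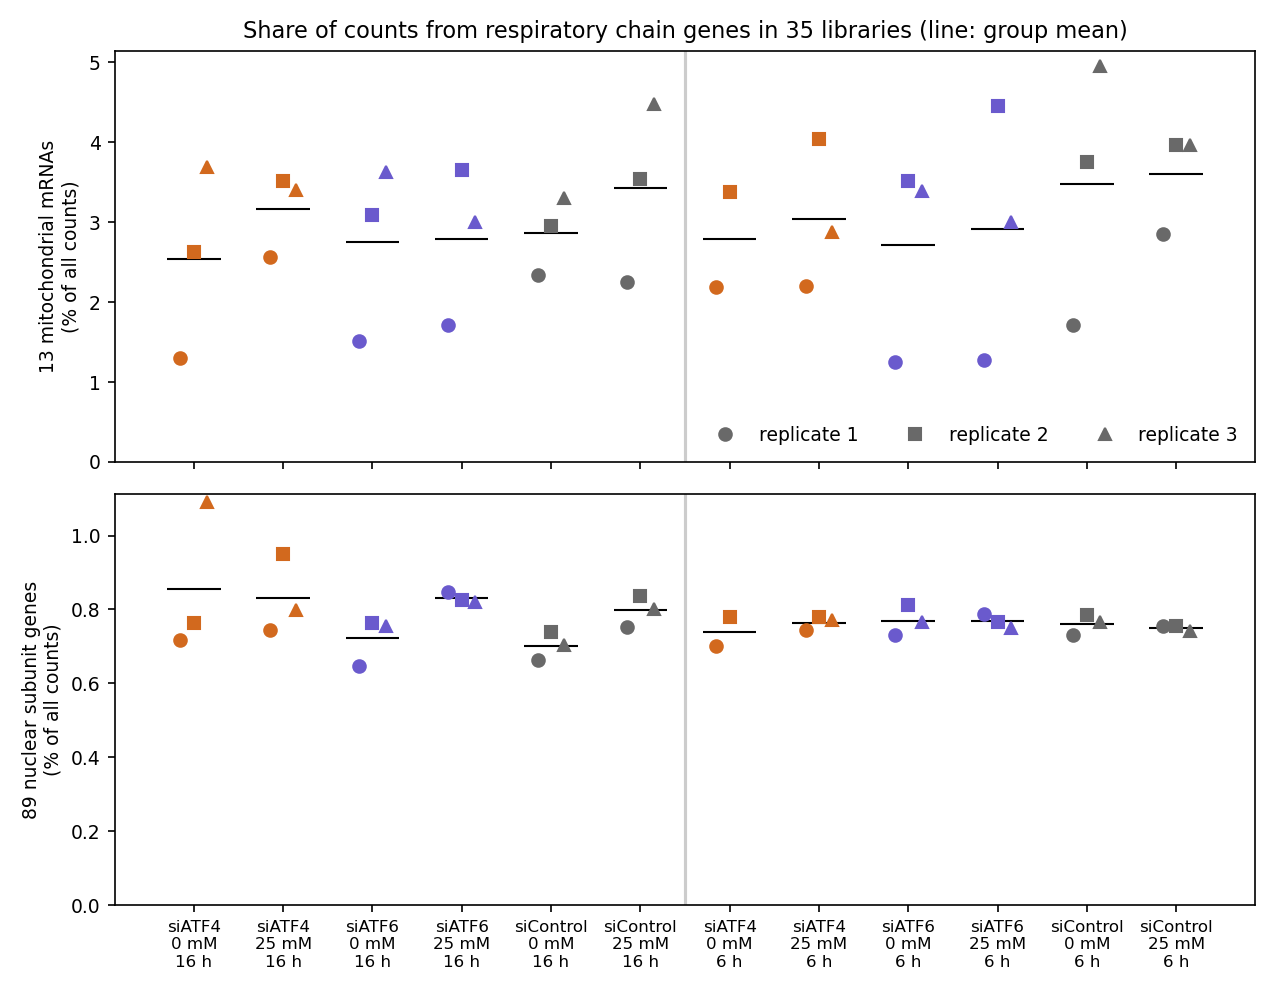
Share of all counts, in percent, from the 13 mitochondrial mRNAs (top) and the 89 nuclear subunit genes (bottom), by siRNA, glucose and time. Each symbol is 1 of 35 libraries, shaped by replicate number, and lines are group means. Replicate 1 (circle) has the lowest mitochondrial share in every group, and the nuclear share reaches 1.09% in siATF4, 0 mM, 16 h, replicate 3.

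Of the summed nuclear levels, that of complex II separated the glucose groups in siControl and siATF6. It summed to 269 to 295 CPM in siControl cells in 0 mM glucose and 328 to 358 CPM in siControl cells in 25 mM glucose at 16 h, with no overlap. In siATF6 it summed to 262 to 299 CPM in 0 mM and 339 to 369.8 CPM in 25 mM glucose, again with no overlap, and in siATF4 to 302 to 386 CPM in 0 mM and 327 to 385 CPM in 25 mM glucose. The overlap in siATF4 came from replicate 3 in 0 mM glucose (386 CPM), as replicates 1 and 2 were at 302 and 316 CPM. The nuclear genes of complex V summed to 2197 to 2505 CPM in siControl cells in 0 mM and 2499 to 2811 CPM in 25 mM glucose, overlapping slightly, and to 2285 to 2817 CPM in 0 mM and 2850 to 2957 CPM in 25 mM glucose in siATF6, without overlap. Those of complex IV summed to 1606 to 1744 CPM in 0 mM and 1371 to 1630 CPM in 25 mM glucose in siControl. Complexes I and III overlapped between glucose groups in siControl. Sums over members carry no test here. In bulk RNA, fewer cells of a kind and less RNA per cell cannot be told apart.

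The first comparison asks which respiratory chain transcripts changed after 16 h without glucose in siControl cells. Few did. NDUFA4L2, COX7A2L and NDUFS4 were higher and SDHA, SDHD, UQCRFS1 and ATP5MC3 were lower, 7 of the 96 tested genes (7.29%), while 29.0% of all 18013 genes tested passed the same threshold (edgeR quasi-likelihood test, Benjamini-Hochberg adjusted p under 0.05 over all genes). By complex, 1 of 37 nuclear genes of complex I passed, 2 of 4 of complex II, 1 of 9 of complex III, 2 of 14 of complex IV and 1 of 19 of complex V. None of the 13 mitochondrial genes passed by edgeR, none had an unadjusted p under 0.05 and their log2 fold changes ran from -0.59 to 0.08. The median log2 fold change was -0.08 over the 96 genes and 0.01 over all genes. A fit on only the 6 libraries compared called 26 of 95 genes, 6 higher and 20 lower (27.4%), where it called 41.1% of all genes, 20.5% higher and 20.7% lower. Leaving out 1 library at a time gave 6, 5 and 5 called genes without replicates 1, 2 and 3 of siControl in 0 mM glucose and 4, 4 and 5 without those in 25 mM glucose, with 21.0 to 23.5% of all genes called. UQCRFS1 lost its call in 6 of these 6 fits (adjusted p = 0.0547 to 0.127), NDUFS4 in 5 (0.0519 to 0.114) and SDHD in 3 (0.0656 to 0.150).

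In complex II, SDHA and SDHD were lower, and SDHB and SDHC did not pass the test. SDHA, the flavoprotein subunit that oxidises succinate (chr5:218241-257082, + strand, GRCh38 as in the deposited table), was at 81.0, 90.1 and 87.1 CPM in 0 mM glucose, against 136, 147 and 137 CPM in 25 mM glucose. Every library without glucose was below every library with it. Its log2 fold change was -0.70 ± 0.10 (SE, edgeR adjusted p = 8.11e-05). SDHD, a membrane anchor subunit (chr11:112086824-112120016, + strand), was at 42.5, 42.8 and 37.6 CPM in 0 mM and 49.7, 50.5 and 48.1 CPM in 25 mM glucose, without overlap. Its log2 fold change was -0.27 ± 0.09 (edgeR adjusted p = 0.0248), and 12.2% of its exon bases are shared with other genes, among them TIMM8B on the other strand. The iron-sulfur subunit SDHB was at 51.5, 60.3 and 54.3 CPM in 0 mM and 50.0, 58.8 and 48.9 CPM in 25 mM glucose, and the anchor SDHC at 99.5, 102 and 90.2 CPM in 0 mM and 92.8, 102 and 98.3 CPM in 25 mM glucose. Both overlap, and neither passed the test (log2 fold changes of 0.07 ± 0.20 and -0.01 ± 0.09).

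Promoters of SDHA, SDHD and UQCRFS1, which were lower, and of NDUFS4, which was higher, are shown as examples from the RefSeq promoter table (GRCh38.p14). Each window is the 250 bases before the RefSeq start, 5′ to 3′, on the strand of the gene: chr5:218070-218319 (+) for SDHA, chr11:112086623-112086872 (+) for SDHD, chr19:29213152-29213401 (-) for UQCRFS1 and chr5:53560389-53560638 (+) for NDUFS4. Capitals mark matches on either strand to the palindromic motif of NRF1, a transcription factor known to act on many respiratory chain genes.
SDHA: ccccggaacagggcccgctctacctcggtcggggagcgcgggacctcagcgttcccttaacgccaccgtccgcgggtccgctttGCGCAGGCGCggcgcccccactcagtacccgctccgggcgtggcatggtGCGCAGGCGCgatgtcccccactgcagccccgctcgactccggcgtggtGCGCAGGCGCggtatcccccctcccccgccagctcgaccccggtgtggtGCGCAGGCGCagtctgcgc
SDHD: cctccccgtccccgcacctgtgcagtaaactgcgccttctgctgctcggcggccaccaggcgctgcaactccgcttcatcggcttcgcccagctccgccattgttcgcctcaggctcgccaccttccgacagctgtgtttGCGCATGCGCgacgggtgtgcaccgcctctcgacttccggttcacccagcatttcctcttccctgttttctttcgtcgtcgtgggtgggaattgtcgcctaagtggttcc
UQCRFS1: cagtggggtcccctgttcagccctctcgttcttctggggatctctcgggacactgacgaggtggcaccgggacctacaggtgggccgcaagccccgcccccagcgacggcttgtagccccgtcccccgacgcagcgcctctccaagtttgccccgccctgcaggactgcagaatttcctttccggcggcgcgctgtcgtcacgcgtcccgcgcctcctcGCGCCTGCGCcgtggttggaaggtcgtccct
NDUFS4: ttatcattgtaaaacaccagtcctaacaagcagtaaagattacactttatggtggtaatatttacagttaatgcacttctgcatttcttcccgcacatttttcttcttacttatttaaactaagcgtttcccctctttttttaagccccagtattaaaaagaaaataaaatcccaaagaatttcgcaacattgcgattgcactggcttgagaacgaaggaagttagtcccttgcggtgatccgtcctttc

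The SDHA window held 4 matches, those of SDHD and UQCRFS1 held 1 each and that of NDUFS4 held 0. The 2 windows of COX7A2L, which was higher, held 0, and that of UQCRC1, higher in siATF4, held 1. Windows of ATP5MC2, COX4I1, COX6A1, NDUFB11, NDUFS7 and NDUFS8, also called higher in siATF4, held 0. Those of NDUFB3, NDUFB6 and COX6B2, lower in siATF6, held 0 as well. ATP5MC3, which was lower, and NDUFA4L2, which was higher, had no window. Among genes called in siControl, the lower ones with a window held matches and the higher ones with a window held none. Over all siRNAs, windows with and without a match occurred among genes called in either direction. ATP5MC2, COX4I1, COX6A1, NDUFB11, NDUFS7 and NDUFS8 were not called without replicate 3 of siATF4 in 0 mM glucose. Whether matches go with direction was not tested. Of the 102 genes, 68 had at least 1 window. Of these, 14 genes (20.6%) held the NRF1 motif in a window, against 6.2% of 27305 genes with a window. The ETS core CCGGAAGT stood in a window of 11 of the 68 genes (16.2%), against 4.13% of the 27305 genes. The ATF4 composite element TGATGNAA stood in a window of 1 of the 68 genes (1.47%), against 3.89% of the 27305 genes. Both strands were searched, and the motifs were chosen after windows of called genes had been seen. A match describes the letters of the window and does not show binding.

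In complex I, NDUFS4, an accessory subunit of the electron input module (chr5:53560633-53683338, + strand), was the 1 called gene. The fit on only the 6 libraries compared also placed NDUFB3, NDUFA2, NDUFS5, NDUFV2, NDUFA8, NDUFB10, NDUFC2 and NDUFA9 lower, with log2 fold changes of -0.59 to -0.23. NDUFS4 was at 43.3, 46.5 and 40.7 CPM in 0 mM glucose, against 27.5, 32.8 and 29.9 CPM in 25 mM glucose, without overlap, with a log2 fold change of 0.53 ± 0.18 (SE, edgeR adjusted p = 0.0347). NDUFB3, an accessory subunit of the membrane arm, was at 14.8, 15.6 and 15.4 CPM in 0 mM and 21.0, 25.6 and 22.3 CPM in 25 mM glucose, without overlap. It missed the threshold (log2 fold change -0.59 ± 0.24, edgeR adjusted p = 0.0727) and passed it with the replicate number as a block (adjusted p = 0.0486). The share of all genes called with that block is not given here.

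In complex III, UQCRFS1, the Rieske iron-sulfur protein (chr19:29205320-29213151, - strand), was at 201, 228 and 206 CPM in 0 mM glucose, against 273, 307 and 285 CPM in 25 mM glucose. The groups do not overlap, and its log2 fold change was -0.45 ± 0.16 (SE, edgeR adjusted p = 0.0408). In complex V, ATP5MC3, 1 of the 3 genes for the c subunit (chr2:175176258-175184607, - strand), was at 86.9, 95.1 and 93.6 CPM in 0 mM and 135, 163 and 148 CPM in 25 mM glucose, without overlap. Its log2 fold change was -0.70 ± 0.18 (edgeR adjusted p = 0.00925). The genes for the same mature protein had other values. ATP5MC1 was at 64.4, 94.0 and 80.0 CPM in 0 mM and 104, 126 and 112 CPM in 25 mM glucose (log2 fold change -0.53 ± 0.27, not past the threshold). ATP5MC2 was at 217, 263 and 230.3 CPM in 0 mM and 161, 199.9 and 192 CPM in 25 mM glucose (0.36 ± 0.21, not past the threshold). Neither pair of groups overlaps, and the values of ATP5MC2 lie on the other side of 0 from those of ATP5MC1 and ATP5MC3. In the fit on only the 6 libraries compared all 3 passed, with log2 fold changes of -0.70 ± 0.09 for ATP5MC3, -0.52 ± 0.14 for ATP5MC1 and 0.36 ± 0.11 for ATP5MC2 (edgeR adjusted p = 0.000709, 0.0216 and 0.0321). ATP5IF1, the inhibitor of ATP synthase, was at 27.1 ± 2.13 CPM in 0 mM and 35.9 ± 0.286 CPM in 25 mM glucose (SD, n = 3 each) and passed in that fit alone (log2 fold change -0.41 ± 0.08, edgeR adjusted p = 0.00592).

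Complex IV held the largest increase. NDUFA4L2 (chr12:57234903-57240715, - strand), a paralogue of the complex IV subunit NDUFA4 that is known as a hypoxia-inducible gene, was at 4.38, 6.01 and 5.35 CPM in 0 mM glucose, against 1.02, 1.43 and 1.44 CPM in 25 mM glucose. The groups do not overlap, and the log2 fold change was 2.01 ± 0.31 (SE, edgeR adjusted p = 0.00016). NDUFA4 itself was at 104 ± 11.0 CPM in 0 mM and 106 ± 16.4 CPM in 25 mM glucose (SD, n = 3 each). COX7A2L, which is known to help join complexes III and IV into supercomplexes (chr2:42333546-42425088, - strand), was at 132, 156 and 138 CPM in 0 mM and 80.3, 97.6 and 91.2 CPM in 25 mM glucose, without overlap. Its log2 fold change was 0.66 ± 0.15 (edgeR adjusted p = 0.00285). COX4I1 was at 277, 259 and 246 CPM in 0 mM and 222, 236 and 210.1 CPM in 25 mM glucose, and COX6A1 at 222 ± 9.18 CPM in 0 mM and 177 ± 14.7 CPM in 25 mM glucose. Both pairs of groups do not overlap, and both genes passed only in the fit on the 6 libraries compared (log2 fold changes 0.23 ± 0.08 and 0.32 ± 0.08). COX5A, COX6B1, COX6C, COX7A2, COX7B and COX8A did not pass in either fit, with log2 fold changes of -0.17 to 0.12.

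**Figure D3:**
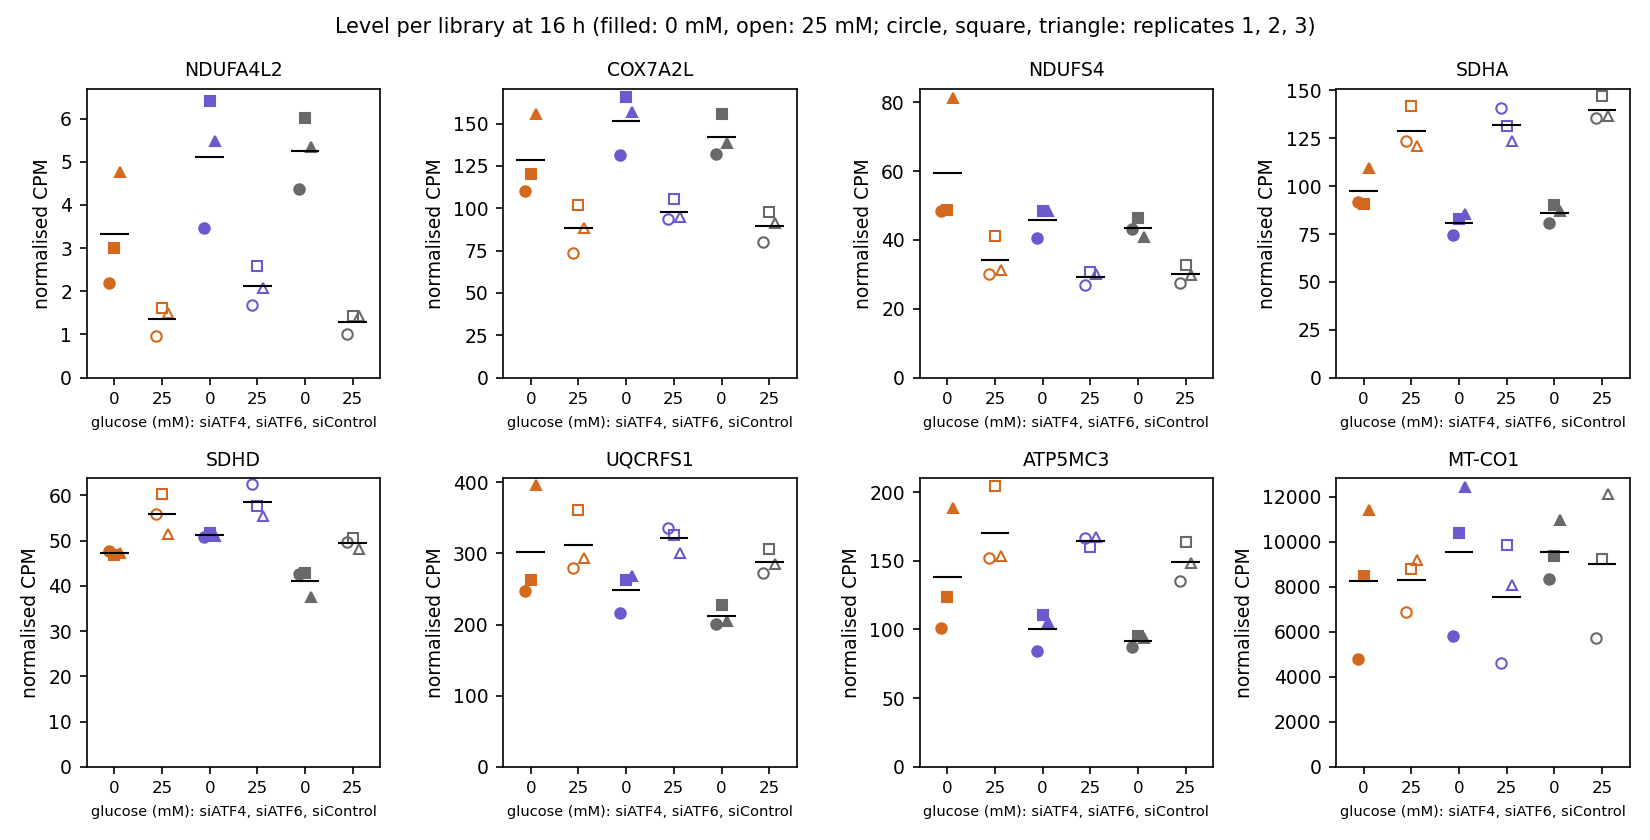
Normalised CPM at 16 h in each library for the 7 genes called in siControl and for MT-CO1, with 0 mM (filled) left of 25 mM glucose (open) in siATF4, siATF6 and siControl. Symbols mark replicates and lines are means. In siControl the 0 mM libraries of SDHA lie at 81.0 to 90.1 CPM, below 136 to 147 CPM in 25 mM, while MT-CO1 overlaps.

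The mitochondrial genes had no called change in siControl cells. MT-CO1 was at 9557 ± 1313 CPM in 0 mM and 9031 ± 3193 CPM in 25 mM glucose (SD, n = 3 each), MT-CO2 at 4033 ± 682 CPM in 0 mM and 4069 ± 1288 CPM in 25 mM, and MT-ATP6 at 2882 ± 473 CPM in 0 mM and 3377 ± 1017 CPM in 25 mM. MT-CYB had the lowest log2 fold change, -0.59 ± 0.50 (SE). MT-ND2 was at 1555, 1820 and 1756 CPM in 0 mM and 1875, 2649 and 2970 CPM in 25 mM glucose, the 1 mitochondrial gene whose groups do not overlap. Its log2 fold change of -0.55 ± 0.35 missed the threshold in the fit over 18 libraries and passed in the fit on the 6 libraries compared (-0.55 ± 0.17, edgeR adjusted p = 0.0368). The median SE was 0.40 for mitochondrial and 0.21 for nuclear genes.

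In siATF6 cells the response to glucose deprivation at 16 h again included NDUFA4L2, COX7A2L, NDUFS4 and SDHA. NDUFA4L2, COX7A2L and NDUFS4 were higher and SDHA, ATP5MC3, NDUFB3, NDUFB6 and COX6B2 were lower, 8 of 96 genes (8.33%) against 33.5% of all genes, with 15.6% of all genes higher and 17.9% lower. Leaving out replicates 1, 2 and 3 of siATF6 in 0 mM glucose gave 6, 7 and 6 called genes, and in 25 mM glucose 5, 5 and 7, with 26.0 to 28.3% of all genes called. SDHA was at 74.3, 82.7 and 85.4 CPM in 0 mM and 141, 131 and 124 CPM in 25 mM glucose, without overlap (log2 fold change -0.73 ± 0.10, edgeR adjusted p = 4.31e-05). NDUFA4L2 was at 3.47, 6.42 and 5.48 CPM in 0 mM and 1.68, 2.59 and 2.08 CPM in 25 mM glucose (1.25 ± 0.30, adjusted p = 0.00467). COX7A2L was at 131, 166 and 157 CPM in 0 mM and 93.4, 106 and 94.8 CPM in 25 mM glucose (0.60 ± 0.15). The groups of both genes do not overlap. NDUFB6, a membrane arm subunit of complex I, was at 23.8, 28.1 and 22.3 CPM in 0 mM and 39.9, 38.1 and 32.1 CPM in 25 mM glucose (-0.60 ± 0.21, adjusted p = 0.0366). COX6B2 was below 0.3 CPM in every siATF6 library of 16 h, and its log2 fold change of -1.99 ± 0.72 rests on few counts. With the replicate block SDHD and UQCRFS1 passed as well (log2 fold changes -0.22 ± 0.08 and -0.41 ± 0.14, edgeR adjusted p = 0.0349 and 0.0355). The share of all genes called with the block is not given here, so these added calls may reflect more genes passing at all. The fit on only the 6 libraries compared called 22 of 95 genes, 9 higher and 13 lower (23.2%), against 45.0% of all genes, 23.2% higher and 21.8% lower.

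In siATF4 cells the comparison depended on 1 library. As deposited, 16 of 96 genes passed (16.7%, against 29.1% of all genes), 11 higher and 5 lower, beside 14.9% and 14.2% of all genes. NDUFS4 was at 48.4, 48.6 and 81.1 CPM in 0 mM and 30.0, 41.2 and 31.2 CPM in 25 mM glucose (log2 fold change 0.78 ± 0.18, SE, edgeR adjusted p = 0.0041). NDUFA4L2 was at 2.20, 3.00 and 4.76 CPM in 0 mM and 0.972, 1.62 and 1.49 CPM in 25 mM glucose (1.27 ± 0.31, adjusted p = 0.00657). UQCRC1, a core protein of complex III, was at 237, 217 and 377 CPM in 0 mM and 149, 206 and 169 CPM in 25 mM glucose (0.65 ± 0.17, adjusted p = 0.00832). In all 3 genes the groups do not overlap and replicate 3 in 0 mM glucose was the highest library. SDHA was at 91.6, 90.8 and 109.7 CPM in 0 mM and 123, 142 and 121 CPM in 25 mM glucose, without overlap (-0.42 ± 0.10, adjusted p = 0.00581). SDHD was at 47.8, 46.8 and 47.2 CPM in 0 mM and 56.0, 60.2 and 51.4 CPM in 25 mM glucose, without overlap (-0.26 ± 0.09). The other genes called higher were COX7A2L, COX4I1, COX6A1, ATP5MC2, NDUFS8, NDUFS7, NDUFB11 and NDUFB9, with log2 fold changes of 0.53 to 0.71. NDUFS8, an iron-sulfur subunit of complex I, shows their pattern, at 151, 136 and 332 CPM in 0 mM and 93.3, 163 and 119 CPM in 25 mM glucose, with overlapping groups. The other genes called lower were NDUFB3 (-0.67 ± 0.24), COX6B2 (-2.21 ± 0.66, below 0.6 CPM in every library) and MT-ATP8 (-0.88 ± 0.30, with the uncertain level described above).

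Replicate 3 of siATF4 in 0 mM glucose at 16 h was high in nearly all nuclear subunits. The median log2 ratio of the 83 tested nuclear genes to the mean of siControl in 0 mM glucose was 1.04 in that library, with 80 of 83 above 0, against 0.08 and 0.18 in replicates 1 and 2. In siATF6 it was -0.10, 0.22 and 0.18, and in siControl -0.07, 0.09 and -0.04. The TMM factor of that library was 0.775, against 0.919 and 0.924 in replicates 1 and 2 of its group, and the part of this factor in the values was not tested. Without that library 14 genes passed, 3 higher and 11 lower, against 27.0% of all genes. The 3 higher were NDUFA4L2 (0.92 ± 0.30), NDUFS4 (0.49 ± 0.13) and UQCRC1 (0.36 ± 0.11). Among the 11 lower were NDUFB3 (-1.03 ± 0.21), ATP5MC3 (-0.61 ± 0.14), SDHA (-0.52 ± 0.09) and SDHD (-0.26 ± 0.09). Without replicates 1 and 2 of that group the counts were 26 higher with 2 lower and 23 higher with 2 lower (26.7 and 32.9% of all genes). Without replicates 1, 2 and 3 of siATF4 in 25 mM glucose they were 3 higher with 3 lower, 23 higher with 1 lower and 4 higher with 4 lower (20.2, 28.1 and 20.0% of all genes). With the replicate block, where the numbers do not pair these libraries, 15 genes were higher and 8 lower (38.0% of all genes), and MT-ND2, MT-ND4L and MT-ND5 were then among the lower ones (-0.66 ± 0.22, -0.88 ± 0.31 and -0.76 ± 0.18). The fit on only the 6 libraries compared called 0 of the genes and 7.38% of all genes.

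**Figure D4:**
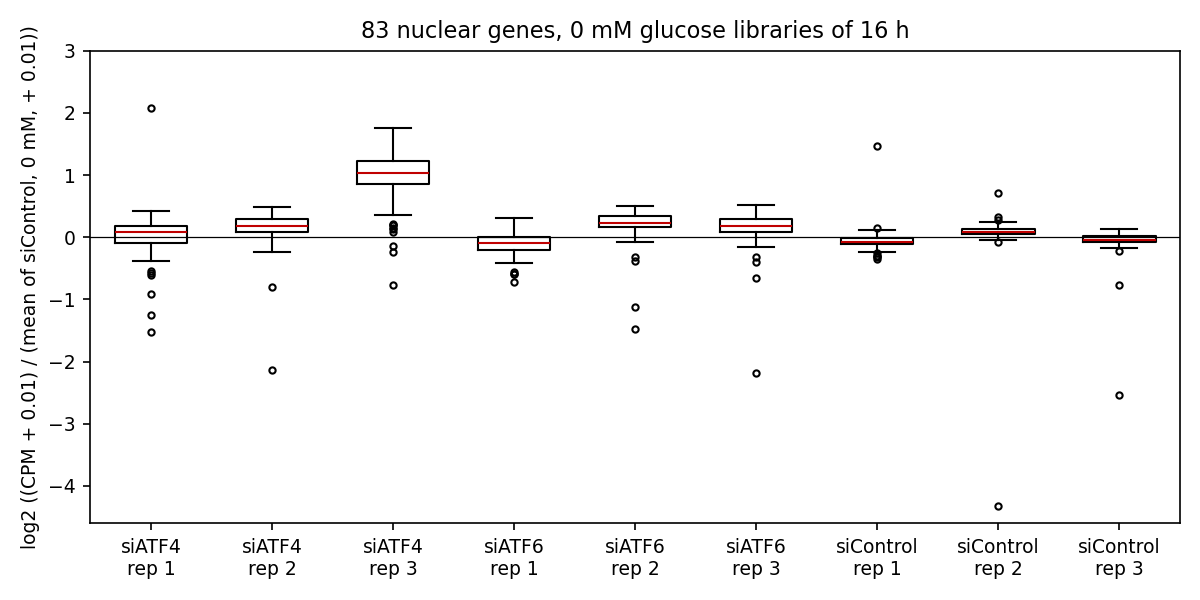
Log2 ratio of the level (CPM + 0.01) of the 83 tested nuclear genes in each 0 mM glucose library of 16 h to their mean in siControl, 0 mM. Boxes span the quartiles, lines are medians, whiskers reach 1.5 box lengths and points lie beyond them. Replicate 3 of siATF4 has a median of 1.04 and the other 8 libraries have medians of -0.10 to 0.22.

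Set side by side at 16 h, NDUFA4L2, COX7A2L and NDUFS4 passed as higher and SDHA as lower in 0 mM glucose in siATF4, siATF6 and siControl. Without replicate 3 of siATF4 in 0 mM glucose COX7A2L was not called in siATF4, and ATP5MC3 was. With the replicate block NDUFB3 and SDHD passed as lower in all 3 siRNAs too, though in siATF4 the numbers do not pair the libraries. For siControl and siATF6 the share of all genes called with the block is not given here. The test of the difference in response between siATF4 and siControl called none of the 96 genes and 0.172% of all genes (edgeR), with 2 members at an unadjusted p under 0.05. For siATF6 against siControl it called none of the 96 genes and 0.0% of all genes, with 0 members at an unadjusted p under 0.05. DESeq2 called 0 members in both. For SDHA the difference in log2 fold change was 0.28 ± 0.14 for siATF4 against siControl and -0.03 ± 0.14 for siATF6 against siControl. For NDUFA4L2 it was -0.75 ± 0.43 for siATF4 and -0.76 ± 0.43 for siATF6 against siControl. These differences missed the threshold, which does not show that the responses are equal.

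**Figure D5:**
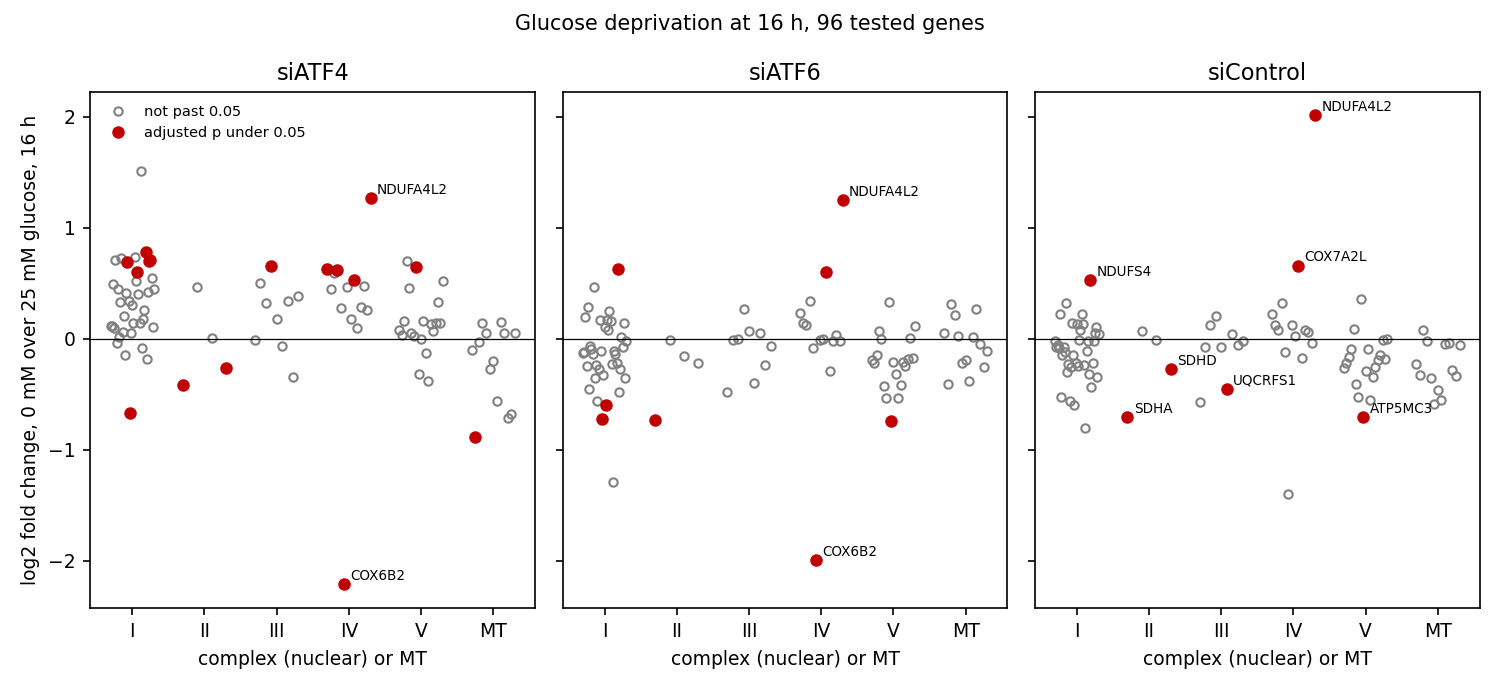
Log2 fold change, 0 mM over 25 mM glucose at 16 h, of the 96 tested genes by nuclear complex and for the mitochondrial genes (MT), in siATF4, siATF6 and siControl. Filled points passed an edgeR adjusted p of 0.05 and open points did not. NDUFA4L2 lies highest among called genes in each panel (1.27, 1.25 and 2.01) and SDHA is below 0 in each (-0.42, -0.73 and -0.70).

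In the main edgeR fit, silencing itself gave no called change of these genes in 25 mM glucose at 16 h. ATF4 there was at 130 ± 10.5 CPM in siATF4 and 157 ± 19.5 CPM in siControl (SD, n = 3 each). In 0 mM glucose it was at 190 ± 33.2 and 460 ± 36.3 CPM, so the drop in ATF4 was smaller in 25 mM. A missed threshold in 25 mM glucose does not show that silencing had no effect. With siATF4 against siControl 0 of 96 genes passed by edgeR (0.0444% of all genes), with 0 at an unadjusted p under 0.05 and 0 by DESeq2. With siATF6 against siControl 0 of 96 passed by edgeR (0.749% of all genes), with 3 at an unadjusted p under 0.05 and 1 by DESeq2. The share of all genes called by DESeq2 is not given here. In 0 mM glucose, siATF4 against siControl gave 8 higher genes of 96 (8.33%, against 12.4% of all genes called and 7.32% called higher) and 0 lower. These were NDUFA6, NDUFA9, NDUFB10 and NDUFS6 of complex I, SDHB of complex II, UQCRC1 and UQCRFS1 of complex III and ATP5F1B of complex V. SDHB was at 68.2, 77.4 and 127 CPM in siATF4 and 51.5, 60.3 and 54.3 CPM in siControl (log2 fold change 0.70 ± 0.20, SE, edgeR adjusted p = 0.0318). ATP5F1B was at 947, 1031 and 1271 CPM in siATF4 and 769, 825 and 776 CPM in siControl (0.44 ± 0.11, adjusted p = 0.0216). UQCRC1 was at 237, 217 and 377 CPM in siATF4 and 178, 181 and 174 CPM in siControl (0.63 ± 0.17, adjusted p = 0.0267). In these 3 genes the groups do not overlap, and in all 8 replicate 3 of siATF4 was the highest library. Of the others, NDUFS6 had a log2 fold change of 0.89, NDUFB10 of 0.79, NDUFA6 of 0.67, NDUFA9 of 0.57 and UQCRFS1 of 0.50. Without replicate 3 of siATF4, 0 of the genes and 4.96% of all genes passed. Without replicate 1 of siATF4 50 genes passed (18.7% of all genes), and without replicate 2 34 passed (21.9%). Without replicates 1, 2 or 3 of siControl 1, 1 and 0 passed (5.96, 6.35 and 2.95% of all genes). With the replicate block, where the numbers do not pair these libraries, 21 genes were higher and 2 lower (22.6% of all genes called), the lower ones being NDUFA4L2 (-0.71 ± 0.18, adjusted p = 0.0143) and MT-ND5 (-0.67 ± 0.18, adjusted p = 0.0177). The fit on only the 6 libraries compared called 0 of the genes and 0.0% of all genes.

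With siATF6 against siControl in 0 mM glucose at 16 h, 1 of 96 genes passed (1.04%, against 4.02% of all genes called and 2.91% called lower), and it was lower. Leaving out 1 library at a time gave 0 to 1 called genes. With the replicate block SDHD passed too, at 50.7, 51.6 and 51.1 CPM in siATF6 and 42.5, 42.8 and 37.6 CPM in siControl, without overlap (log2 fold change 0.31 ± 0.08, SE, edgeR adjusted p = 0.0227). Without the block SDHD missed the threshold, and the share of all genes called with the block is not given here. The edgeR fit on only the 6 libraries compared called 1 of 94 genes in 0 mM glucose (4.48% of all genes, 2.8% lower) and 1 of 96 in 25 mM glucose (5.63% of all genes, 3.79% lower). The siATF4 and siATF6 comparisons share their siControl libraries.

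At 6 h no respiratory chain gene passed in any comparison as labelled. Deprivation called 0 of 96 genes and 0.0% of all 18355 genes tested in siATF4, siATF6 and siControl, with 0, 0 and 4 members at an unadjusted p under 0.05. For siATF4 against siControl it was 0 of 96 and 0.0% of all genes in both glucose levels, with 0 members at an unadjusted p under 0.05 in 25 mM and 4 in 0 mM. For siATF6 against siControl it was 0 of 96 and 0.496% of all genes in 25 mM and 0 of 96 and 0.311% in 0 mM, with 8 members at an unadjusted p under 0.05 in each. DESeq2 called 1 gene, ATP5PD in siATF6 against siControl in 25 mM glucose, and 0 in the other 6 comparisons. The share of all genes called by DESeq2 is not given here. Without the replicate 2 libraries of 6 h edgeR again called 0 members in all 7 comparisons, while deprivation then called 1.17% of all genes in siATF4, 1.82% in siATF6 and 3.92% in siControl, and siATF6 against siControl 0.0851% in 25 mM and 0.117% in 0 mM glucose. SDHA in siControl at 6 h was at 132, 149.7 and 120.1 CPM in 0 mM and 127, 137 and 135 CPM in 25 mM glucose, and the groups overlap. With the replicate block and without replicate 2, 3 genes were higher with deprivation in siControl. These were COX7A2L (0.23 ± 0.08), COX6C (0.29 ± 0.08) and NDUFB9 (0.35 ± 0.08, SE, edgeR adjusted p = 0.0400, 0.0150 and 0.00603). For deprivation at 6 h the numbers do not pair the libraries, and the share of all genes called in that fit is not given here.

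Time was compared in siControl, 16 against 6 h. In 25 mM glucose 0 of 96 genes passed by edgeR (0.273% of all genes), with 1 at an unadjusted p under 0.05 and 0 by DESeq2. In 0 mM glucose 8 of 96 genes passed (8.33%, against 13.4% of all genes), 3 higher and 5 lower at 16 h, beside 6.21% and 7.21% of all genes. SDHA was at 81.0, 90.1 and 87.1 CPM at 16 h and 132, 149.7 and 120.1 CPM at 6 h, without overlap (log2 fold change -0.64 ± 0.10, SE, edgeR adjusted p = 8.7e-05). ATP5MC3 was at 86.9, 95.1 and 93.6 CPM at 16 h and 134, 153 and 143 CPM at 6 h, without overlap (-0.64 ± 0.16, adjusted p = 0.00799). COX7A2L was at 132, 156 and 138 CPM at 16 h and 97.6, 75.4 and 105 CPM at 6 h, without overlap (0.62 ± 0.13, adjusted p = 0.00181). NDUFA4L2 was at 4.38, 6.01 and 5.35 CPM at 16 h and 2.08, 0.708 and 2.71 CPM at 6 h, without overlap (1.51 ± 0.39, adjusted p = 0.00917). NDUFS4 (0.54 ± 0.15), NDUFB3 (-0.78 ± 0.20) and NDUFV2 (-0.52 ± 0.14) passed as well. MT-ATP8 also passed (-1.58 ± 0.51) with overlapping groups, 28.7 ± 4.49 CPM at 16 h and 85.7 ± 51.5 CPM at 6 h (SD, n = 3 each). Without the replicate 2 libraries of 6 h 6 genes passed, 2 higher and 4 lower (9.49% of all genes). Without siControl 0 mM replicate 2 of 6 h alone 5 passed, 1 higher and 4 lower, with the share of all genes not given here.

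Assembly factors and other genes of the pathway were read from lists beside the subunits. The background for the counts below is 14.6% of all genes higher and 14.5% lower. With deprivation in siControl at 16 h none of 20 complex I and none of 4 complex II assembly factors passed by edgeR, with 4 and 0 at an unadjusted p under 0.05. Of 25 complex IV assembly factors 1 was higher and 6 were lower, with the heme A synthase COX15 at a log2 fold change of -0.50 ± 0.10 and the copper chaperone SCO1 at -0.40 ± 0.08 (SE, edgeR adjusted p = 0.00108 and 0.00115). Of 6 complex III factors 1 was higher (TTC19, 0.34 ± 0.09) and 1 lower (UQCC1, -0.60 ± 0.12). Of 5 complex V factors ATPAF1 (-0.43 ± 0.08) and TMEM70 (-0.58 ± 0.13) were lower. Of 11 other subunits and carriers 1 was lower, ETFDH (-0.65 ± 0.13), which passes electrons from fatty acid oxidation to coenzyme Q. In coenzyme Q synthesis 3 of 13 genes were higher and 3 lower, with PDSS1 at -0.87 ± 0.13 and COQ10B at 0.67 ± 0.13.

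Genes that make and process mitochondrial RNA held more called genes that were lower than higher. Of 17 genes of mitochondrial DNA transcription and replication 2 were higher and 7 lower, among them the mitochondrial RNA polymerase POLRMT (-0.65 ± 0.14) and the nuclease MGME1 (-0.66 ± 0.09, edgeR adjusted p = 5.27e-05). Of 20 genes of mitochondrial RNA processing and stability 1 was higher and 8 lower, among them FASTKD1 (-0.98 ± 0.11), the tRNA-cleaving enzyme ELAC2 (-0.67 ± 0.09) and TRMT10C (-0.76 ± 0.12), all with adjusted p at or below 0.000204. Background for these counts is 14.6% of all genes higher and 14.5% lower. Of 12 tested regulators of respiratory genes 2 were higher and 1 lower, with GABPB1, a subunit of GA-binding protein, at 0.75 ± 0.09, MYC at 0.37 ± 0.10 and PPARGC1B at -0.95 ± 0.23. Of 78 mitochondrial ribosomal protein genes 4 were higher and 6 lower, with MRPL10 at 0.61 ± 0.10 and MRPL49 at -0.55 ± 0.11. In the tricarboxylic acid cycle 1 of 19 genes was higher and 4 were lower, with citrate synthase (CS) at -0.44 ± 0.08 and fumarase (FH) at -0.54 ± 0.12. Of 15 genes of mitochondrial protein stress and proteolysis 3 were higher and 3 lower, with the stress relay DELE1 at 0.86 ± 0.07, the chaperone HSPA9 at 0.97 ± 0.09 and the protease LONP1 at 0.91 ± 0.15, against AFG3L2 at -0.37 ± 0.09.

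In siATF6 deprivation gave 1 higher and 7 lower of 25 complex IV assembly factors, 2 higher and 6 lower of 17 transcription and replication genes and 1 higher and 8 lower of 20 RNA processing genes, beside 15.6% higher and 17.9% lower of all genes. In siATF4 the RNA processing genes again gave 1 higher and 8 lower, and the mitochondrial ribosome gave 16 higher and 0 lower of 78, beside 14.9% higher and 14.2% lower of all genes. Without replicate 3 in 0 mM glucose the mitochondrial ribosome gave 4 higher and 7 lower, with 27.0% of all genes called. For siATF4 against siControl in 0 mM glucose 38 of 78 mitochondrial ribosomal genes were higher and 0 lower, beside 7.32% of all genes higher. Without that library 7 of 78 were higher and 0 lower, beside 477 of all 18405 genes higher. Complex IV assembly factors gave 5 higher and 0 lower of 25 there, and 1 higher without that library. The genes of mitochondrial DNA transcription and replication gave 3 higher of 17 with it and 4 higher without it.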

How the data were processed

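RNA was poly(A)-enriched, sequenced without strand information as pairs of 150 bases, and processed with fastp, STAR and RSEM on GRCh38, per the submitters' processing notes, which give no versions. For the annotation, no release is given in the sources consulted. The authors deposited 1 table of RSEM expected counts, not normalised, with a column per library that was assigned by its name. Expected counts were rounded to whole numbers. Depth was 39.4 to 78.7 M counts in 35 libraries, and the lowest mean chi-square between a pair of replicates was 8.44 per gene, above the level of 1 that counting error alone gives. The members, lists and comparisons were chosen with earlier results of these data known.

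Genes were filtered with filterByExpr by group (minimum count 10, minimum total 15), scaled by TMM and tested with the edgeR 4.0.16 quasi-likelihood F test in R 4.3.3, with Benjamini-Hochberg adjustment over all genes tested and a threshold of 0.05. The 18 libraries of 16 h, 17 of 6 h and 35 for time were fitted together. The main edgeR fit was tested on simulated data for deprivation in siControl at 16 and 6 h. The other comparisons and the alternative fits were not tested in this way. Levels per kilobase divide by the deposited gene length. Exon overlap was computed with GENCODE release 29, in which 57 of the 102 genes had the same start and end. Promoter windows are from RefSeq (GRCh38.p14), matched by symbol.

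Genes were named by rule: all mitochondrial genes, the SDH subunits, listed isoforms and readthrough genes, the leading gene of each complex and, per 16 h comparison and direction, up to 5 called genes with the smallest adjusted p and 5 with the largest fold change, or 3 for 6 h and time. Any other gene named was chosen after its values were seen, among them NDUFB3 in siControl and COX6C and NDUFB9 at 6 h. The values of 1 called gene are not reported here.

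Alternatives were DESeq2 1.42.0, median-of-ratios factors, scaling without mitochondrial genes, no filter, each library left out, only the libraries compared, all 36 libraries, no replicate 2 at 6 h and the replicate number as a block. Same-numbered libraries deviated together with correlations of -0.322 to 0.587, over 0.1 in 75 of 85 pairs. By the rule that every pair of a comparison exceed 0.1, numbers paired the libraries for deprivation at 16 h in siControl and siATF6, for siATF6 against siControl at 16 h, for siATF4 against siControl in 25 mM glucose at 16 h and for the knockdown comparisons at 6 h. They did not for comparisons that include siATF4 in 0 mM glucose at 16 h or for deprivation at 6 h. The rule rests on the values alone, and a single deviating library can break it. It does not show that the wells were unpaired in the experiment.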

Additional observations from a re-analysis of the deposited data

How the results depend on the processing

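Counts below are of respiratory chain genes past an adjusted p of 0.05. Where no share of all genes stands beside a count, it cannot be told apart from a shift in how many genes passed at all. No called gene changed direction under any alternative, and scaling without mitochondrial genes kept the side of the threshold of all 48 gene results, as did median-of-ratios factors and the replicate block. Calls were lost for 1 of 48 with DESeq2, 11 of 48 with no filter, 24 of the 39 run with only the libraries compared and all 40 run with all 36 libraries. At 16 h deprivation called 7 genes in siControl, 16 in siATF4 and 8 in siATF6 (29.0, 29.1 and 33.5% of all genes). With all 36 libraries in 1 fit, which adds the failed library, deprivation called 0 in each of the 3. With only the libraries compared it called 26 in siControl, 0 in siATF4 and 22 in siATF6 (41.1, 7.38 and 45.0% of all genes). Leaving out 1 library gave 6 to 28 in siATF4, 5 to 7 in siATF6 and 4 to 6 in siControl. For siATF4 against siControl in 0 mM glucose 8 genes passed (12.4% of all genes). There DESeq2 called 27, median-of-ratios factors 14, all 36 libraries 0 and only the libraries compared 0 (0.0% of all genes in the last). The replicate block called 23 and the block with nuclear scaling 23, and leaving out 1 library gave 0 to 50. For siATF6 against siControl in 0 mM glucose 1 gene passed (4.02% of all genes). There DESeq2 called 2, median-of-ratios factors 2, no filter 0 and all 36 libraries 0. The replicate block called 2 and the block with nuclear scaling 2, and leaving out 1 library gave 0 to 1. For siATF6 against siControl in 25 mM glucose (0 genes, 0.749% of all genes) DESeq2 called 1 and only the libraries compared 1 (5.63% of all genes in the last). At 6 h (0 genes) DESeq2 called 1 for siATF6 against siControl in 25 mM glucose. The replicate block without replicate 2 called 3 there and 4 for siATF6 against siControl in 0 mM glucose. It called 3 for deprivation in siControl, where the numbers do not pair the libraries. For 16 against 6 h in 0 mM glucose (8 genes) leaving out 1 library gave 5 to 8. Every other count stayed at 0 in each leave-one-out fit. The replicate block called 23 genes for deprivation in siATF4 at 16 h, where the numbers do not pair the libraries.

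The difference in mitochondrial share, 0 minus 25 mM at 16 h, ran from -1.19 to -0.0003 percentage points in siATF4, -0.582 to 0.575 in siATF6 and -1.15 to -0.030 in siControl when 1 library was left out. The block with nuclear scaling, the block without replicate 2 and the libraries left out for the share were chosen after seeing the data. The cause of these shifts was not tested.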
